A study of Homo sapiens with 9 samples.

Results

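The effect of a hairpin against SLC7A5 on the transcripts of Daudi cells was read from 6 arrays, 3 titled Slc7a5-sh and 3 titled Ctrl-sh, of the 9 arrays of the study. Daudi cells come from a Burkitt lymphoma, a cancer of germinal centre B cells. Every cell had been infected with a short hairpin RNA vector, which directs degradation of a matching messenger RNA, and kept under puromycin for 48 h to select infected cells. The control hairpin stood in the Ctrl-sh group and the hairpin against SLC7A5 in the Slc7a5-sh group, and the 3 remaining arrays (C-Myc-sh) carried a hairpin against MYC. The labels give 1 hairpin name per target, so effects of that hairpin on other transcripts cannot be told apart from effects of a lower SLC7A5. The labels call the arrays of a group biological replicates but do not name separate infections. A p-value here thus reflects only the spread between arrays within the 3 groups, the C-Myc-sh arrays included, and that spread may be technical.

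Genes were included where a probe set, a group of array probes for 1 transcript, carried exactly 1 gene symbol. Of 54613 probe sets 41091 did, and they stood for 19775 genes, of which 11250 were bright enough to be tested. A level bar separated signals clearly above background from the rest. It was set at a log2 signal of 7.17 (144 on the linear scale), the 95th percentile of 120 olfactory and taste receptor genes, which B cells do not normally transcribe and whose median was 4.32. Of the 11250 tested genes, 9014 had a mean at or above the bar in both groups. Signals are log2 values scaled to 1 target per array, so they are relative, and less RNA per cell or fewer cells cannot be told apart from them. Group means are given with their SD over 3 arrays (n = 3).

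SLC7A5 encodes the light chain of LAT1, a membrane exchanger that brings leucine and other large neutral amino acids into the cell and sends glutamine out. It works only when joined to the heavy chain SLC3A2, which carries it to the cell surface. Leucine reaching the cytosol is sensed by the mTORC1 kinase complex, and a shortage of amino acids leaves tRNAs uncharged, which activates the kinase GCN2 and through it the transcription factor ATF4. Germinal centre B cells and the lymphomas that arise from them take up amino acids at a high rate, and MYC raises transcription of several of their transporters.

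The hairpin's target was lower in every Slc7a5-sh array. SLC7A5 stood at 12.06, 12.35 and 12.21 on the Ctrl-sh arrays and 11.86, 11.84 and 11.95 on the Slc7a5-sh arrays, that is at 80.0% of its control level (log2 change -0.32, SE 0.07, limma adjusted p = 0.00414). The partner chain SLC3A2 was not called: its signals were 10.58, 10.37 and 10.56 on the Ctrl-sh arrays and 10.71, 10.87 and 10.59 on the Slc7a5-sh arrays, all 3 above the controls (log2 change 0.22, SE 0.09, limma adjusted p = 0.0793). Without replicate 3 of Slc7a5-sh the SLC3A2 change was 0.29, limma adjusted p = 0.0334. MYC, a transcription factor, stood at 78.7% of its control (log2 change -0.35, SE 0.05, limma adjusted p = 0.000381), and it was lower still in C-Myc-sh, by 0.74 below Slc7a5-sh (limma adjusted p = 4.08e-08). The decreases of SLC7A5 and MYC in Slc7a5-sh were thus close in size. SLC7A5 itself had a mean of 11.80 in C-Myc-sh and 11.89 in Slc7a5-sh, a difference that was not called (-0.08, limma adjusted p = 0.351). Later contrasts of C-Myc-sh with Slc7a5-sh are thus between groups that did not differ detectably in this transcript.

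The markers of Daudi's own lineage were bright. All 9 B-lineage markers with a probe set lay above the bar, 1 rose and 5 fell, and their summed linear signal was 51312 to 53979 in Ctrl-sh and 44525 to 48207 in Slc7a5-sh. Of 17 myeloid markers 0 reached the bar, and of 22 T and NK cell markers 1 did (CD247). Of 24 epithelial and fibroblast markers 2 did (COL1A1 and ACTA2). Summed linear signals ran from 539 to 788 in Ctrl-sh and 438 to 562 in Slc7a5-sh for the myeloid list, 1325 to 1385 and 711 to 989 for T and NK cells, and 1241 to 1430 and 1400.3 to 1601 for the epithelial and fibroblast list. Their part in the results was not tested. The median array signal lay between 6.05 and 6.26, and correlations across genes (not independent replicates) were 0.972 to 0.977 within groups and 0.961 to 0.968 between them.

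A gene was called where limma's adjusted p, over the 11250 tested genes, was under 0.05. By this rule 2843 genes were called, 25.3% of those tested: 1605 rose (14.3%) and 1238 fell (11%). The 6 arrays did not overlap between the groups for 39.8% of tested genes. Most changes were small, with a median log2 change of 0.43 among genes that rose and -0.41 among genes that fell, and the median over all tested genes was 0.03. Of the called genes, 167 changed by 1 or more on the log2 scale, and 75 of these (40 up and 35 down) were above the bar in both groups. A further 51 called genes without overlap were above the bar in Slc7a5-sh alone and 23 in Ctrl-sh alone.

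**Figure D1:**
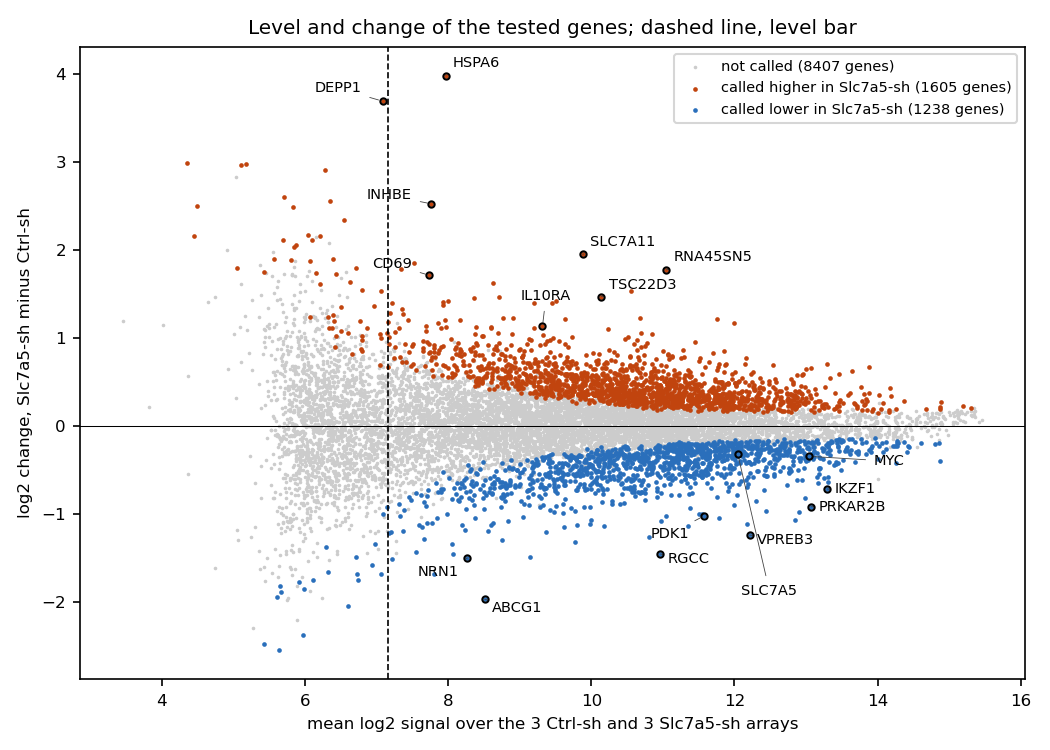
Log2 change of the 11250 tested genes (vertical axis, Slc7a5-sh minus Ctrl-sh) against their mean log2 signal over the 6 arrays (horizontal axis), with called genes coloured and the level bar of 7.17 dashed. HSPA6 and DEPP1 stand highest and ABCG1 is the lowest of the labelled genes, while SLC7A5 and MYC lie among the small decreases at bright signals.

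Among genes above the bar in both groups, the 15 highest changes ran from 1.22 to 1.95 and held genes of amino acid, lipid and immune function. SLC7A11, the cystine importer that feeds glutathione synthesis, gave 8.67, 9.03 and 9.01 on the Ctrl-sh arrays and 10.81, 10.84 and 10.91 on the Slc7a5-sh arrays, so the groups lay far apart (3.86-fold). ASS1, which makes the precursor of arginine, was 3.09-fold higher (log2 change 1.63, SE 0.34, limma adjusted p = 0.00309). CHAC1, an enzyme that cleaves glutathione, was 2.33-fold higher (log2 change 1.22, SE 0.17, limma adjusted p = 0.000148). LPIN1, a phosphatidate phosphatase of lipid synthesis, was 2.67-fold higher (log2 change 1.42, SE 0.15, limma adjusted p = 1.78e-05). These metabolic genes stood beside several that act elsewhere.

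RNA45SN5, the precursor of the large ribosomal RNAs, gave 10.24, 10.21 and 10.02 on the Ctrl-sh arrays and 11.88, 11.96 and 11.96 on the Slc7a5-sh arrays, an increase of 3.42-fold (log2 change 1.77, SE 0.08, limma adjusted p = 2.57e-08), and both of its probe sets rose. The rRNA genes are present in many near-identical copies, so the signal cannot be given to 1 copy, and the array reads transcripts primed at a poly(A) tail. TSC22D3, the glucocorticoid-induced leucine zipper protein that restrains NF-kB and AP-1, gave 9.36, 9.52 and 9.34 on the Ctrl-sh arrays and 10.88, 10.79 and 10.96 on the Slc7a5-sh arrays. No Slc7a5-sh array overlapped a control in either gene. BCL2A1, an inhibitor of apoptosis in the BCL2 family, gave 6.56, 7.66 and 7.51 on the Ctrl-sh arrays and 8.73, 8.67 and 8.45 on the Slc7a5-sh arrays and so rose from about the level bar (log2 change 1.37, SE 0.21, limma adjusted p = 0.0003). MPEG1, the pore-forming protein perforin-2 of phagocytes, rose 2.67-fold, and ZMYND11, a reader of methylated histone H3.3, rose 2.65-fold. ANKRD12, an ankyrin repeat protein, rose 2.91-fold, TMEM87A, a Golgi membrane protein, 2.33-fold, and HINT3, a nucleotide hydrolase of the histidine triad family, 2.63-fold. SAXO2, a protein of ciliary microtubules, rose 2.74-fold and RCBTB2 2.63-fold. LDLRAD4, which restrains TGF-beta signalling, rose 2.76-fold. With the probe sets of a gene averaged in place of the brightest, the calls of RCBTB2 (0.47, limma adjusted p = 0.456) and LDLRAD4 (1.16, limma adjusted p = 0.0703) were lost. That average, here and below, takes in every probe set of a gene, also those too dim to be tested. RCBTB2 had 1 tested probe set, and the 2 of LDLRAD4 both rose and were called.

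The 15 lowest changes above the bar were led by ABCG1 and held genes of varied function. ABCG1, which moves cholesterol to lipoproteins, gave 9.51, 9.40 and 9.59 on the Ctrl-sh arrays and 7.53, 7.24 and 7.81 on the Slc7a5-sh arrays, so about 25.5% of the control signal was left. ABCA1, its partner in cholesterol export, fell to 40.1% (log2 change -1.32, SE 0.15, limma adjusted p = 2.73e-05). RGCC, a regulator of the cell cycle, gave 11.77, 11.66 and 11.66 on the Ctrl-sh arrays and 10.12, 10.14 and 10.45 on the Slc7a5-sh arrays, and PVRIG, an inhibitory receptor that binds nectin-2, gave 11.50, 11.43 and 11.39 on the Ctrl-sh arrays and 10.22, 10.10 and 10.19 on the Slc7a5-sh arrays. In each of these genes the highest Slc7a5-sh array lay below the lowest control. VPREB3, a chaperone-like protein of immunoglobulin assembly in B cells, gave 12.84, 12.87 and 12.80 on the Ctrl-sh arrays and 11.63, 11.33 and 11.82 on the Slc7a5-sh arrays, a fall to 42.3%. NRN1, the lipid-anchored surface protein neuritin, fell to 35.3% of control and BBLN, a coiled-coil protein whose 3 tested probe sets all fell, to 35.7%. HSD17B8, an enzyme of mitochondrial fatty acid synthesis, gave 9.88, 10.02 and 10.01 on the Ctrl-sh arrays and 8.88, 8.64 and 8.75 on the Slc7a5-sh arrays. TMEM38B, a cation channel of the endoplasmic reticulum, fell to 45.4%, and POFUT4, a protein fucosyltransferase, to 44.2%. The groups were apart on all 6 arrays in these genes too.

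The calls of the other members of the lowest 15 were lost in settings that drew on other probe sets of the gene. PFKFB4, which makes the activator of phosphofructokinase, fell to 36.4% of control, the complex III assembly factor UQCC5 to 39.6% and the peptide hydrolase APEH to 40.7%. With the probe sets of a gene averaged, the changes of PFKFB4 (-0.69, limma adjusted p = 0.479), UQCC5 (-0.39, limma adjusted p = 0.547), APEH (-0.56, limma adjusted p = 0.0986), RGCC (-1.49, limma adjusted p = 0.069) and ABCA1 (-0.15, limma adjusted p = 0.825) were no longer called. CDC42EP3, an effector of the GTPase CDC42, and TAF9B, a subunit of transcription complexes, fell to 43.7% and 45.1%. Without probe sets that can bind related transcripts (names ending in _s_at or _x_at) their changes were -0.65, limma adjusted p = 0.11 and -0.49, limma adjusted p = 0.0512.

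**Figure D2:**
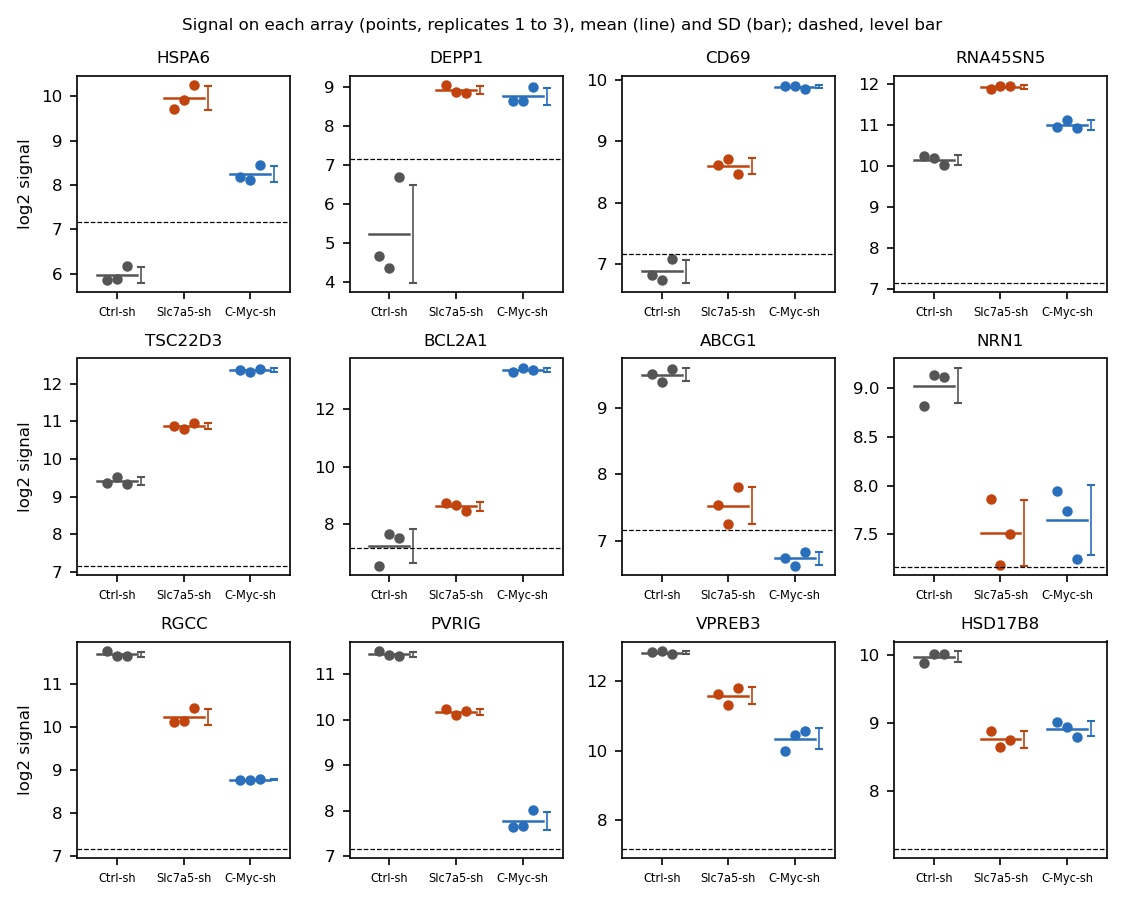
Log2 signal of 12 genes on each array (points, replicates 1 to 3), with the mean and SD of each group of 3 and the level bar dashed. The Slc7a5-sh points lie above every Ctrl-sh point in the first 6 panels and below every one in the last 6, and the C-Myc-sh points lie beyond, between or beside them depending on the gene.

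Some of the largest changes were in genes below the bar in 1 group, for which a change is best read against the bar. HSPA6, a stress-inducible chaperone of the HSP70 family, gave 5.87, 5.89 and 6.18 on the Ctrl-sh arrays and 9.71, 9.92 and 10.25 on the Slc7a5-sh arrays. Its Slc7a5-sh mean stood 2.79 above the bar. INHBE, an inhibin beta subunit secreted as a hormone, gave 5.94, 7.13 and 6.44 on the Ctrl-sh arrays and 8.86, 9.05 and 9.18 on the Slc7a5-sh arrays and stood 1.86 above the bar. DEPP1, a FOXO-induced regulator of autophagy, gave 4.67, 4.36 and 6.68 on the Ctrl-sh arrays and 9.05, 8.89 and 8.85 on the Slc7a5-sh arrays, with 1 control array well above the other 2, and stood 1.77 above it. CD69, the early activation antigen of lymphocytes, gave 6.83, 6.73 and 7.09 on the Ctrl-sh arrays and 8.61, 8.71 and 8.46 on the Slc7a5-sh arrays. CLEC4A, an inhibitory C-type lectin receptor, gave 6.33, 7.09 and 6.34 on the Ctrl-sh arrays and 8.58, 8.49 and 8.27 on the Slc7a5-sh arrays. All 5 were not clearly above background in control cells and were so on each Slc7a5-sh array. SH3BP5L also crossed the bar (2.19-fold), but its call was lost without replicate 3 of Ctrl-sh (0.85, limma adjusted p = 0.063) and without replicate 3 of Slc7a5-sh (0.97, limma adjusted p = 0.0587).

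In the other direction, ADAM19, a membrane-bound metalloprotease, gave 8.37, 8.70 and 8.86 on the Ctrl-sh arrays and 7.10, 6.49 and 7.30 on the Slc7a5-sh arrays and its Slc7a5-sh mean lay below the bar. With probe sets averaged, dim ones included, its call was lost (-0.75, limma adjusted p = 0.117), but only 1 of its probe sets was bright enough to be tested. PLD4, an endolysosomal nuclease that trims the ligands of Toll-like receptors, gave 8.42, 8.19 and 8.33 on the Ctrl-sh arrays and 7.44, 6.86 and 6.78 on the Slc7a5-sh arrays. MCRIP1, a partner of the corepressor CtBP, fell to 46.6% and the hydrolase ABHD14B to 45.7% of control. These 4 genes thus dropped to background or near it. The protease NAPSA did so too (log2 change -1.43), but its call was lost without replicate 3 of Ctrl-sh (-1.21, limma adjusted p = 0.0865) and without replicate 3 of Slc7a5-sh (-1.16, limma adjusted p = 0.0631).

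The C-Myc-sh arrays were set beside these genes by a direct contrast with Slc7a5-sh in the same fit, in which 49.5% of tested genes were called. Of the 15 highest genes, C-Myc-sh was called above Slc7a5-sh in 6 and below it in 4. Of the 15 lowest it was above in 4 and below in 4. TSC22D3 was higher still with the MYC hairpin (1.48 on the log2 scale, limma adjusted p = 1.32e-09), and BCL2A1 was 4.74 higher, at a mean of 13.36 ± 0.06. RNA45SN5 was lower in C-Myc-sh than in Slc7a5-sh by 0.93 and HSPA6 by 1.71 (limma adjusted p = 2.43e-07 and 5.64e-06). ASS1 was lower in C-Myc-sh than in Slc7a5-sh (difference -3.06, limma adjusted p = 3.36e-06), where its mean was 9.44 ± 0.02. Its C-Myc-sh mean of 6.38 ± 0.92 also lay under the control mean of 7.81 ± 0.25, but C-Myc-sh was not tested against Ctrl-sh. The C-Myc-sh arrays of ASS1 (5.33, 7.02 and 6.79) were all below the level bar. BBLN (1.85), MCRIP1 (2.00) and ADAM19 (1.51) were higher in C-Myc-sh than in Slc7a5-sh. MCRIP1 was at 9.16 ± 0.12 in C-Myc-sh, against a control mean of 8.26 ± 0.38. For NRN1, ABCA1, HSD17B8, POFUT4 and SAXO2 the direct contrast was not called, with differences of 0.13, 0.05, 0.16, -0.09 and -0.09.

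**Figure D3:**
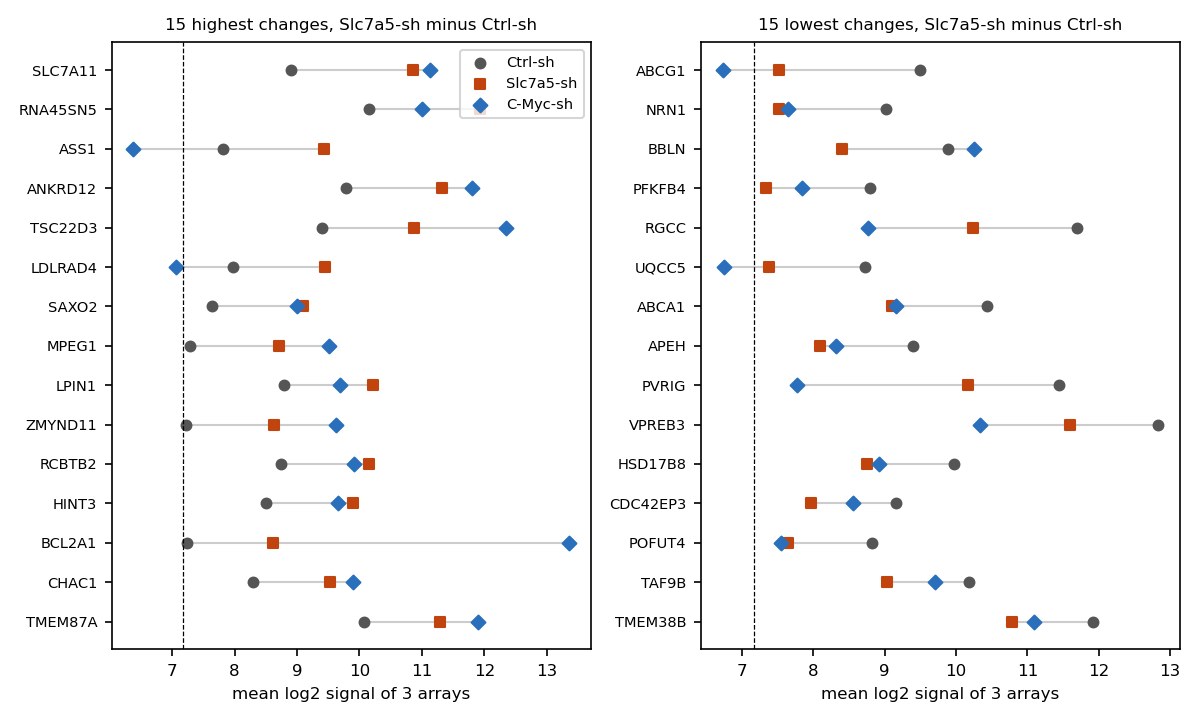
Mean log2 signal of 3 arrays in Ctrl-sh (circles), Slc7a5-sh (squares) and C-Myc-sh (diamonds) for the 15 highest and 15 lowest changes of Slc7a5-sh, with the level bar dashed. C-Myc-sh lies beyond Slc7a5-sh for TSC22D3 and BCL2A1, and on the other side of Ctrl-sh for ASS1, LDLRAD4 and BBLN. C-Myc-sh was not tested against Ctrl-sh.

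Stress responses were read from lists written from general knowledge. The counts called in these and later lists compare with 14.3% higher and 11% lower among all tested genes. The ATF4 list, which ATF4 drives when amino acids run short, had 25 of 38 tested members higher and 0 lower, with a median log2 change of 0.45. SLC38A2, a carrier for glutamine and other small amino acids, gave 12.13, 12.19 and 12.25 on the Ctrl-sh arrays and 12.91, 12.91 and 12.84 on the Slc7a5-sh arrays, and PSAT1 of serine synthesis gave 13.24, 13.14 and 13.13 on the Ctrl-sh arrays and 13.76, 13.76 and 13.75 on the Slc7a5-sh arrays. Heat shock chaperones had 12 of 31 higher and 3 lower (median 0.14). Beside HSPA6, the DnaJ-type cochaperones DNAJB2 (1.02), DNAJB4 (0.81) and DNAJB9 (0.85) and the microsomal HSPA13 (0.62) rose, whereas the HSP70-family member HSPA2 fell (-0.81). Of 29 NRF2 target and redox genes 8 rose and 4 fell (median 0.02), among the former TXNIP, an inhibitor of thioredoxin (0.46). The p53 target list was split, with 5 of 23 up and 5 down (median 0.01). PMAIP1, the proapoptotic protein NOXA, the cell cycle inhibitor CDKN1A, the growth arrest gene GADD45A and the leucine sensor SESN2 rose (0.64, 0.74, 0.44 and 0.67). The ribonucleotide reductase subunit RRM2B and cyclin G1 (CCNG1) fell (-0.67 and -0.34). So did MDM2 (-0.54, called on 3 of its 8 tested probe sets) and ZMAT3 (-0.96, called on 1 of its 5).

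The upstream sequence of genes on these lists was searched for short motifs that the factors of each response are known to bind. Sequences are the 250 bases before the RefSeq start of each gene in GRCh38.p14, 5′ to 3′ on the gene's strand, with matches on either strand in capitals. They are shown for HSPA6, the largest change, and for a chaperone and 2 ATF4 genes that rose with it. The heat shock element was searched as GAANNTTCNNGAA and the composite C/EBP-ATF element as TGATGNAA. The coordinates are chr1:161524290-161524539 (+ strand) for HSPA6, chr7:157336754-157337003 (+ strand) for DNAJB6, chr15:40953221-40953470 (+ strand) for CHAC1 and chr7:97872409-97872658 (- strand) for ASNS.
HSPA6: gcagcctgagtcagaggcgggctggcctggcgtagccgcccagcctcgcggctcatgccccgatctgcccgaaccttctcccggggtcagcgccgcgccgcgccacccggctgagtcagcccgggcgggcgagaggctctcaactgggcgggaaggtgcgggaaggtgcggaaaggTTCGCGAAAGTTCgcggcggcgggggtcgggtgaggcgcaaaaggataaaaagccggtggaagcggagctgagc
DNAJB6: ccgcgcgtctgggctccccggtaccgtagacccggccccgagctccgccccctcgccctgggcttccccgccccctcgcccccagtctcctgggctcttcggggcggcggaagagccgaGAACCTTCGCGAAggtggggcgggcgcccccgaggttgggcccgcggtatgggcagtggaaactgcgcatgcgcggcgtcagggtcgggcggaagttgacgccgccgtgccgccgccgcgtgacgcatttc
CHAC1: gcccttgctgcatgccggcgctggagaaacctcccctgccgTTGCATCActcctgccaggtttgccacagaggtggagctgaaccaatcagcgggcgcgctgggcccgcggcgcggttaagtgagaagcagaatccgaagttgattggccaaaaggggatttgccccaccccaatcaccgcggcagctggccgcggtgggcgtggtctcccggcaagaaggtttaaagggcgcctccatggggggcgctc
ASNS: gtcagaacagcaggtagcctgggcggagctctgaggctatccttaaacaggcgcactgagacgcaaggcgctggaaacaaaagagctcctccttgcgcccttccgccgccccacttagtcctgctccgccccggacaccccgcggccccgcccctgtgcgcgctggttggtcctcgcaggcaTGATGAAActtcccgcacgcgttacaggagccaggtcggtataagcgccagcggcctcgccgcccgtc
The heat shock element was found in 0.439% of all 27305 promoters of this length, and in 3 of 28 promoters of tested chaperone genes, of which HSPA6 and DNAJB6 rose, DNAJB6 by 0.40 (SE 0.08, limma adjusted p = 0.00144). By call, 2 of 12 chaperone promoters of genes that rose held the element, 0 of 3 that fell and 1 of 13 that were not called. DNAJB6 lies outside the naming rule and was chosen after its values and sequence were seen. The C/EBP-ATF element was found in 3.19% of all promoters and in 3 of 33 promoters of the ATF4 list, CHAC1, ASNS and ATF3. These were 3 of the 23 that rose, as most of the list did, and 0 of the 10 that were not called held it. ASNS, asparagine synthetase, was 1.54-fold higher (log2 change 0.62, SE 0.06, limma adjusted p = 8.15e-06), but with probe sets averaged its change was 0.87, limma adjusted p = 0.0595 and without the probe sets ending in _s_at or _x_at 1.11, limma adjusted p = 0.233. ATF3, a stress-induced transcription factor, was similarly placed (0.84, with 0.49, limma adjusted p = 0.251 and 0.79, limma adjusted p = 0.0632 under the same settings). A match is a string of letters and not a bound site.

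FOXO factors and genes associated with them were moved in both directions, with 10 of 33 up and 5 down (median 0.08), or 3 of 22 up and 5 down without the probe sets ending in _s_at or _x_at. DEPP1 and TSC22D3, given above, and the cell cycle inhibitor CDKN1B rose. CDKN1B, or p27, gave 9.15, 8.98 and 9.07 on the Ctrl-sh arrays and 10.10, 10.12 and 9.89 on the Slc7a5-sh arrays, an increase of 1.96-fold with no overlap. The pseudokinase TRIB2 gave 11.76, 11.75 and 11.74 on the Ctrl-sh arrays and 10.96, 10.92 and 11.05 on the Slc7a5-sh arrays, and the antiproliferative protein TOB1 (-0.56) and the MYC antagonist MXI1 (-0.36) fell as well. The FOXO core GTAAACA was present in 2.98% of all promoters and in 6 of 30 of this list. These were 5 of 10 that rose, 1 of 4 that fell (TRIB2) and 0 of 16 that were not called. The motif is printed for DEPP1 and TXNIP, which both rose, at chr10:44978810-44979059 (- strand) and chr1:145996580-145996829 (- strand).
DEPP1: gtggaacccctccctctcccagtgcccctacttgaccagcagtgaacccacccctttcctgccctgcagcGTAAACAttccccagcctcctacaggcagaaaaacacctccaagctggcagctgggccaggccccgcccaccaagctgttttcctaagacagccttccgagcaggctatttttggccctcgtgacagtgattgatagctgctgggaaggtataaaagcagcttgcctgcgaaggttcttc
TXNIP: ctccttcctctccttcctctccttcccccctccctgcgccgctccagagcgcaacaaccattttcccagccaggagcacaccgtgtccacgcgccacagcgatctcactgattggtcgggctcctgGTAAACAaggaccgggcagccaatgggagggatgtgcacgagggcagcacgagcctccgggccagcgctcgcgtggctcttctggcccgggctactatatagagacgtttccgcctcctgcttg
Motif counts over a list describe these sequences only, since lists were assembled from genes known to belong to a response.

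Glycolysis and the rest of the hypoxia response went down in part. Of 23 tested glycolysis genes 14 fell and 0 rose (median -0.26), against 11% of all tested genes. PDK1, a kinase that inhibits pyruvate dehydrogenase, gave 12.03, 12.13 and 12.11 on the Ctrl-sh arrays and 11.10, 11.05 and 11.05 on the Slc7a5-sh arrays. The aldolase ALDOC gave 10.43, 10.40 and 10.27 on the Ctrl-sh arrays and 9.14, 9.14 and 9.46 on the Slc7a5-sh arrays. PGK1, phosphoglycerate kinase, fell by 0.42 on its brightest probe set and by up to 1.23 on the other 5, all called. Of 30 hypoxia-responsive genes outside glycolysis 10 fell and 2 rose (median -0.19). The mitophagy receptors BNIP3 and BNIP3L, which mark mitochondria for removal, fell to 47.6% and 58.8%, and the mitochondrial protein FAM162A to 63.5%. The 2 members that rose were HIF1A itself (0.43), the oxygen-regulated subunit of the hypoxia factor, and the secreted glycoprotein STC2 (1.00), which is also an ATF4 target. The other 18 tested members were not called.

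The core hypoxia motif ACGTG, which is also the right-hand part of the E-box CACGTG, was present in 18.7% of all promoters. It was found in 9 of 22 glycolysis promoters and in 15 of 24 promoters of the other hypoxia genes. In the first list 6 of 14 that fell and 3 of 8 that were not called held it, and in the other 5 of 7 and 10 of 15. The full E-box was present in 6.49% of all promoters, in 3 of the 22 glycolysis promoters and in 8 of the 24 others. ACGTG is shown for BNIP3 and PGK1 and for the long non-coding RNA MIR210HG, at chr10:131981924-131982173 (- strand), chrX:78103998-78104247 (+ strand) and chr11:568458-568707 (- strand). The stretch marked in BNIP3 is 1 full E-box, matched on both strands.
BNIP3: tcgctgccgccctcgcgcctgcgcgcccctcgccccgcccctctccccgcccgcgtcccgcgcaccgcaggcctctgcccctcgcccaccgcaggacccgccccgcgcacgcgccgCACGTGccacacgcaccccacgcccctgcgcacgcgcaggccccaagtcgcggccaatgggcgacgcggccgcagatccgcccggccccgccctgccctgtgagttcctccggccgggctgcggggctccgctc
PGK1: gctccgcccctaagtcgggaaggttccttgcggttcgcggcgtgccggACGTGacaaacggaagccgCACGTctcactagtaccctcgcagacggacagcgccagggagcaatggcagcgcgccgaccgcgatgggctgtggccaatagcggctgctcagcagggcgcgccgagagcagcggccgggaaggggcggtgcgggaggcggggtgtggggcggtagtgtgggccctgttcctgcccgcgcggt
MIR210HG: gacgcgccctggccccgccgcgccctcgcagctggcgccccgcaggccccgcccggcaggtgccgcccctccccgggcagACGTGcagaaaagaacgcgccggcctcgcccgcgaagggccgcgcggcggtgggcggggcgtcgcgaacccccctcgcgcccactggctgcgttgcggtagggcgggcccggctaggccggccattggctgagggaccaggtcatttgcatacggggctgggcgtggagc
At these small counts no difference between called and other members can be read. MIR210HG, the host transcript of the hypoxia-induced miR-210, gave 8.08, 8.15 and 8.38 on the Ctrl-sh arrays and 7.15, 7.51 and 6.51 on the Slc7a5-sh arrays (log2 change -1.14, SE 0.37, limma adjusted p = 0.0329). Its call was lost with no filter on low values (adjusted p = 0.0504), without the trend in the spread (0.0862) and on leaving out any array but replicate 2 of Slc7a5-sh, the changes then running from -1.21 to -0.87 (adjusted p from 0.0612 to 0.121).

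Cell division genes did not move as 1 block. Of 51 tested DNA replication genes 24 fell and 1 rose (median -0.24). UHRF1, which guides maintenance of DNA methylation, gave 13.61, 13.49 and 13.54 on the Ctrl-sh arrays and 12.95, 12.92 and 12.98 on the Slc7a5-sh arrays, and the helicase subunit GINS1 (-0.55) and the ribonucleotide reductase subunit RRM2 (-0.41) fell. Of 44 mitosis genes, by contrast, 9 rose and 8 fell (median 0.02), and 5 fell without replicate 3 of Ctrl-sh or replicate 1 of Slc7a5-sh. CDC20, the activator of the anaphase-promoting complex (0.59), and CDCA8, a member of the chromosomal passenger complex (0.49), rose. INCENP, of the same complex (-0.72), the kinetochore protein SPC25 (-0.56) and the cell cycle factor MYBL2 (-0.62) fell. CDC20 and CDCA8 were lower in C-Myc-sh than in Slc7a5-sh, by 0.92 and 1.00 (limma adjusted p = 1.53e-05 and 3.18e-07). Among 17 histone genes 2 fell, one of them the linker histone H1-10 (-0.79). The difference between the replication and mitosis lists was not tested.

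**Figure D4:**
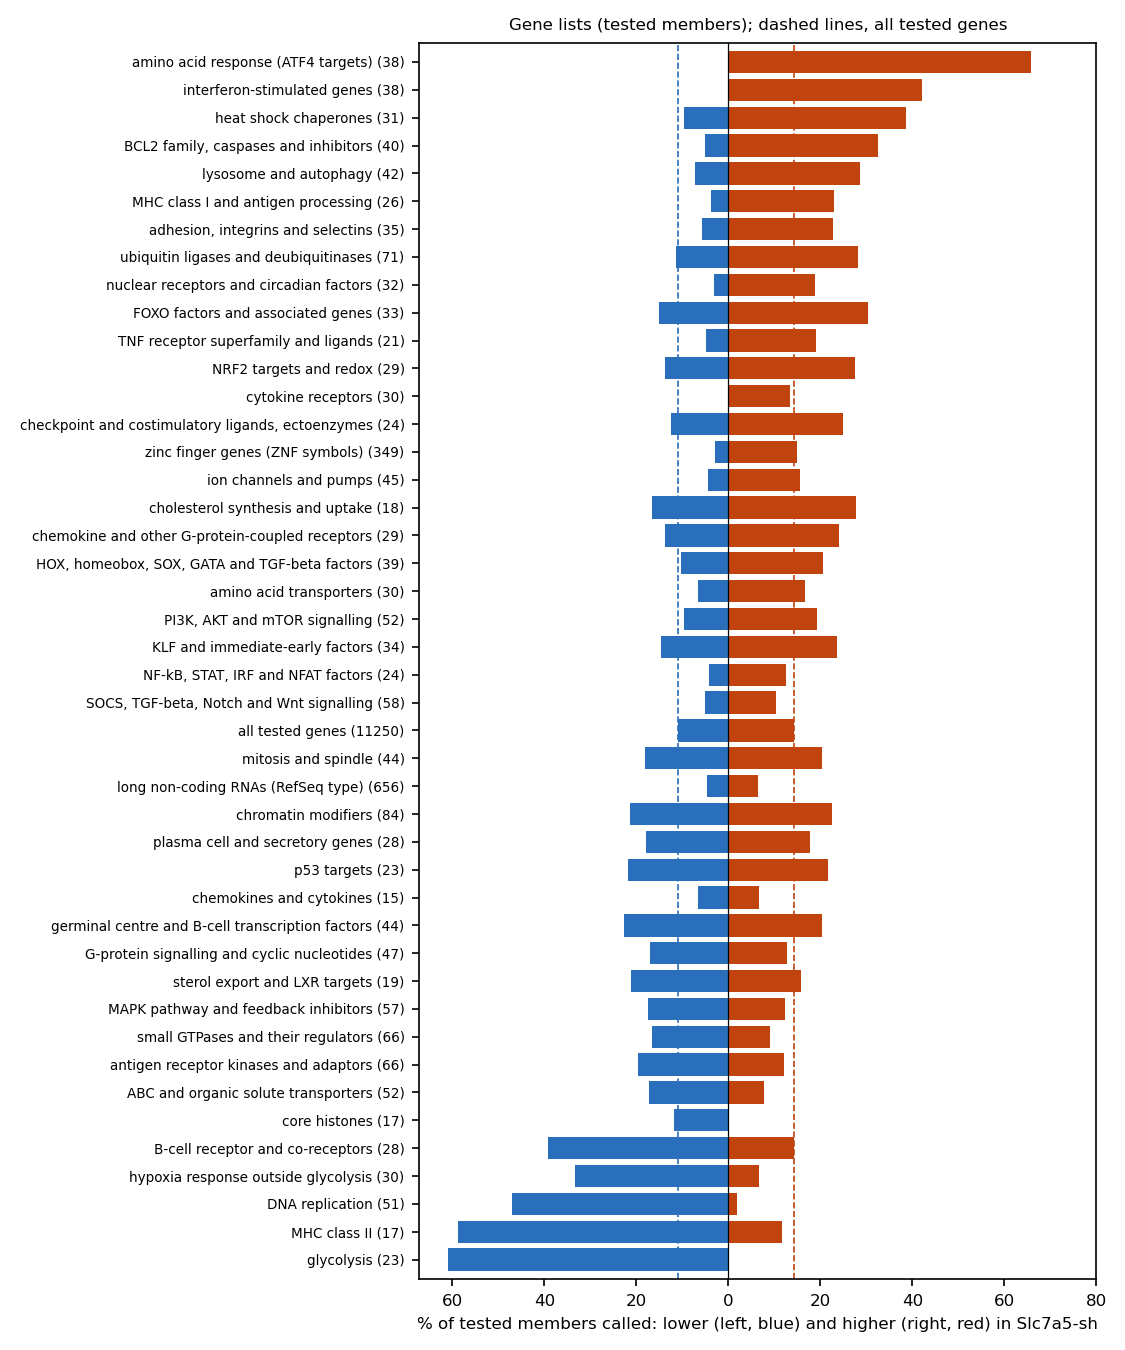
Share of the tested members of each gene list called higher (right) and lower (left) in Slc7a5-sh, with the number of tested members in brackets and the shares of all tested genes, 14.3% and 11%, as dashed lines. The ATF4 list reaches 65.8% higher, glycolysis 60.9% lower and DNA replication 47.1% lower, with cytokine receptors at 13.3% higher and 0 lower and the B-cell receptor list at 39.3% lower and 14.3% higher.

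Changes at the cell surface reached several receptors of cytokines. Of 30 tested cytokine receptor genes 4 rose and 0 fell (median 0.19), which is close to the share of all tested genes in the upward direction. Both chains of the IL-10 receptor were among them: IL10RA, the ligand-binding chain, gave 8.63, 8.72 and 8.91 on the Ctrl-sh arrays and 9.73, 9.87 and 10.05 on the Slc7a5-sh arrays, and IL10RB, the shared second chain, gave 8.53, 8.73 and 8.38 on the Ctrl-sh arrays and 9.15, 8.98 and 9.38 on the Slc7a5-sh arrays. IL21R, the receptor of the follicular helper T cell cytokine IL-21, gave 8.93, 8.71 and 8.82 on the Ctrl-sh arrays and 9.72, 9.65 and 9.84 on the Slc7a5-sh arrays. In these 3 genes every Slc7a5-sh array was above every control on the kept probe set. The other 2 probe sets of IL21R were not called (0.60 and 0.00), and its average was 0.51. IL10RA was higher in Slc7a5-sh than in C-Myc-sh (difference -0.77, limma adjusted p = 0.000344), while IL21R and IL10RB were higher in C-Myc-sh (0.95 and 0.75). Of 21 TNF receptor family genes and ligands 4 rose and 1 fell (median 0.30), with CD70, the ligand of CD27, up by 0.44. Of 29 chemokine and other G-protein-coupled receptors 7 rose and 4 fell, and 4 rose without replicate 3 of Ctrl-sh or replicate 2 of Slc7a5-sh. The orphan receptor GPR160 gave 12.75, 12.67 and 12.66 on the Ctrl-sh arrays and 12.12, 12.11 and 12.18 on the Slc7a5-sh arrays, and P2RY8, a receptor that confines B cells to the germinal centre, fell by 0.60 on the log2 scale. The G-protein-coupled receptors thus changed in both directions.

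Molecules of the B-cell surface moved in both directions. Of 28 members of the B-cell receptor and co-receptor list 11 fell (39.3%) and 4 rose (14.3%, the share of all tested genes), although their median change was 0.04. With probe sets averaged, 7 of 25 fell and 1 rose, and the median was -0.09. CD180, a Toll-like receptor homologue of B cells, gave 10.54, 10.47 and 10.60 on the Ctrl-sh arrays and 9.53, 9.37 and 9.37 on the Slc7a5-sh arrays and fell to 46.3%. MS4A1, or CD20, fell to 81.4%. The 4 that rose included 2 chains of the receptor itself, the heavy chain IGHM (0.35) and the signalling chain CD79B (0.28), and CD83, an activation marker that stabilises MHC class II at the surface, which rose by 0.36 and was 2.94 higher again in C-Myc-sh. With probe sets averaged, the calls of IGHM (0.47, limma adjusted p = 0.0895) and CD79B (0.55, limma adjusted p = 0.409) were lost, and IGHM was at 0.05, limma adjusted p = 0.679 without the probe sets ending in _s_at or _x_at. BST2, or tetherin, which holds budding viruses at the membrane, rose 1.55-fold, and the integrin chain ITGAE (CD103) rose 1.34-fold. Of 35 adhesion genes 8 rose and 2 fell, and of 24 checkpoint, costimulatory and ectoenzyme genes 6 rose and 3 fell. The latter included CD38, an ectoenzyme that consumes NAD, which fell to 68.1%, and the small lipid-anchored antigen CD52, which fell to 65.9%.

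Antigen presentation genes were counted by class, and the difference between the classes was not tested. Of 17 tested MHC class II genes 10 fell and 2 rose (median -0.40), or 5 and 2 with probe sets averaged. HLA-DRA, the alpha chain of HLA-DR, gave 13.41, 13.38 and 13.38 on the Ctrl-sh arrays and 12.37, 12.40 and 12.47 on the Slc7a5-sh arrays, HLA-DPB1 fell by 0.72 and HLA-DRB1 by 0.46. RFX5, a factor that binds class II promoters, rose by 0.26. In C-Myc-sh the same 3 class II genes lay above Slc7a5-sh by 1.98, 1.82 and 1.84 (limma adjusted p at most 2.24e-10), and above the control means as well. Probe sets of HLA genes can bind related alleles and paralogues, so these values may be shared between them. Of 26 class I and antigen processing genes 6 rose and 1 fell (median 0.16), or 3 of 21 and 0 without the probe sets ending in _s_at or _x_at. Those that rose included TAP1 and TAPBP of the peptide loading complex (0.59 and 0.41), HLA-E, a ligand of NK cell receptors (0.28), and MR1, which presents microbial metabolites (1.12).

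Interferon-stimulated genes had 16 of 38 tested members higher and 0 lower (median 0.43). IFIT2, an antiviral RNA-binding protein, gave 7.79, 7.06 and 7.22 on the Ctrl-sh arrays and 8.66, 8.64 and 8.39 on the Slc7a5-sh arrays, and its relative IFIT3 gave 8.16, 8.29 and 8.66 on the Ctrl-sh arrays and 9.39, 9.28 and 9.06 on the Slc7a5-sh arrays. Their C-Myc-sh means were far higher, by 3.37 and 4.31. IRF1, a factor that drives such genes, rose by 0.78 and the inflammatory caspase CASP1 by 1.11 to 1.36 over its 5 probe sets. The interferon response core GAAANNGAAA was found in 3.07% of all promoters and in 18 of 30 of this list, 8 of 12 that rose and 10 of 18 that were not called. It is printed for IFIT3 and BST2, a pair that rose, at chr10:89327747-89327996 (+ strand) and chr19:17405631-17405880 (- strand).
IFIT3: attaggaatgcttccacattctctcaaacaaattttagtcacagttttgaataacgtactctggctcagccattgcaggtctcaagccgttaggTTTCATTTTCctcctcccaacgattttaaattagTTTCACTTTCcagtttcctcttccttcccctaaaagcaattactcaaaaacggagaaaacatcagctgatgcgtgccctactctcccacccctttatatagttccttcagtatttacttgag
BST2: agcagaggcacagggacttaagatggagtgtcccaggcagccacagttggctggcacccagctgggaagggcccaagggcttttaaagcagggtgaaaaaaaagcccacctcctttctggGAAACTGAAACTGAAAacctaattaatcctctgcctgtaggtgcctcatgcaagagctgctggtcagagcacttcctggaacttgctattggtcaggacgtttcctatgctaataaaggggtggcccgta
Each of these upstream stretches holds 2 matches, which overlap in BST2.

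Transcription factors changed in both directions at levels well above the bar. Of 44 germinal centre and B-cell factors 9 rose and 10 fell (median -0.05). The number that rose was 5 without replicate 1 of Ctrl-sh or of Slc7a5-sh, and with probe sets averaged 0 rose and 6 fell. IKZF1, or Ikaros, stood at 13.66 ± 0.04 in Ctrl-sh and 12.94 ± 0.07 in Slc7a5-sh (mean ± SD, n = 3), with no overlap, and fell on 7 of its 8 tested probe sets by the same test. PAX5, which fixes B-cell identity, gave 13.79, 13.39 and 13.70 on the Ctrl-sh arrays and 13.09, 13.02 and 12.84 on the Slc7a5-sh arrays, and BCL11A fell by 0.34. PAX5 and BCL11A were higher in C-Myc-sh than in Slc7a5-sh (1.26 and 0.50), while IKZF1 was lower by 0.49. Of 24 NF-kB, STAT, IRF and NFAT factors 3 rose (12.5%) and 1 fell (4.2%), against 14.3% and 11% of all tested genes. The one that fell was REL, the c-Rel subunit of NF-kB, which gave 12.07, 12.01 and 11.99 on the Ctrl-sh arrays and 11.46, 11.63 and 11.39 on the Slc7a5-sh arrays. Of 32 nuclear receptor and circadian genes 6 rose and 1 fell (median 0.13), with the clock activator CLOCK (0.77), the clock repressor NR1D2 (1.03) and the sterol-sensing receptor NR1H3, or LXR-alpha (0.91), all higher. NR1D2 was 1.26 lower in C-Myc-sh than in Slc7a5-sh (limma adjusted p = 0.000155). Of 19 sterol export and LXR target genes 3 rose and 4 fell (median -0.01). Those that fell include ABCG1, ABCA1 and MYLIP, which degrades the LDL receptor and fell by 0.70 to 1.56 on its 5 tested probe sets. ABCA1 fell on both of its tested probe sets, while its change was -0.15 with all probe sets averaged, dim ones included. LPCAT3, a lysophospholipid acyltransferase, was called higher on its kept probe set (0.89) and lower on the other (-1.42), and its average was -0.26, limma adjusted p = 0.407, so its direction is not settled.

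Immediate-early factors, KLF proteins and chromatin modifiers were mixed. Of 34 KLF and immediate-early genes 8 rose (5 without replicate 2 of Slc7a5-sh) and 5 fell, with IER5, a regulator of the heat shock factor (0.54), among the first and KLF10, a TGF-beta induced repressor (-0.47), among the second. The homeobox factor CUX1 fell by 0.46. Of 84 chromatin modifiers 19 rose and 18 fell (median 0.01), or 6 and 11 with probe sets averaged. HDAC9, a class IIa histone deacetylase, gave 10.52, 10.49 and 10.58 on the Ctrl-sh arrays and 9.52, 9.51 and 9.35 on the Slc7a5-sh arrays. The class I deacetylase HDAC1 fell by 0.37 and the histone demethylase KDM2B by 0.56, and KDM2B was 1.45 higher in C-Myc-sh. Genes with ZNF symbols, a group chosen after their values were seen, had 52 of 349 tested members higher (33 without replicate 1 of Ctrl-sh) and 10 lower (median 0.15). That is 14.9% higher, close to the 14.3% of all tested genes, and 2.9% lower, against 11%.

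**Figure D5:**
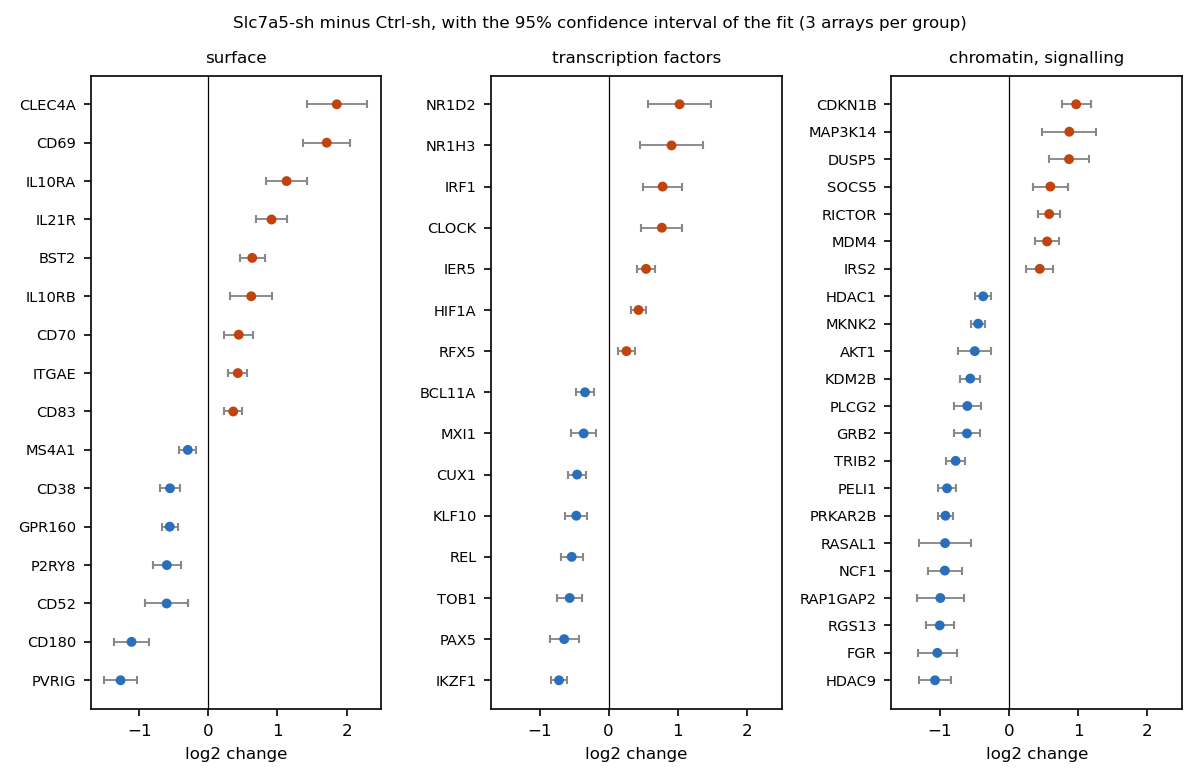
Log2 change of 53 surface, transcription factor, chromatin and signalling genes with the 95% confidence interval of the fit (3 arrays per group). The genes were named from lists by smallest p, and every interval excludes 0.

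Single genes of cyclic AMP and antigen receptor signalling fell at bright signals. PRKAR2B, a regulatory subunit of protein kinase A, gave 13.55, 13.51 and 13.53 on the Ctrl-sh arrays and 12.64, 12.65 and 12.55 on the Slc7a5-sh arrays, about 52.9% of control, and RGS13, which shuts off chemokine receptor signals in germinal centre B cells, gave 11.91, 12.20 and 11.89 on the Ctrl-sh arrays and 10.97, 11.06 and 10.97 on the Slc7a5-sh arrays. Both were lower still in C-Myc-sh, by 1.32 and 1.51. Of 47 G-protein and cyclic nucleotide genes 6 rose and 8 fell (median -0.10), and 5 or 4 fell without replicate 1 or 3 of Ctrl-sh. Of 66 antigen receptor kinases and adaptors 8 rose (5 without replicate 1 of Ctrl-sh) and 13 fell (median -0.05). FGR, a SRC-family kinase, gave 9.47, 9.60 and 9.62 on the Ctrl-sh arrays and 8.72, 8.48 and 8.37 on the Slc7a5-sh arrays. PLCG2, the phospholipase downstream of the B-cell receptor, gave 11.53, 11.57 and 11.71 on the Ctrl-sh arrays and 11.20, 10.89 and 10.91 on the Slc7a5-sh arrays, and the adaptor GRB2 (-0.61) and the oxidase subunit NCF1 (-0.93) fell too. NCF1 has near-identical pseudogenes, with which its signal may be shared. In the other direction HCLS1, a cytoskeletal substrate of LYN, rose by 0.24. Of 66 small GTPases and regulators 6 rose (9.1%) and 11 fell (16.7%, or 7 genes without replicate 2 of Slc7a5-sh), against 14.3% and 11% of all tested genes. RAP1GAP2, which switches off RAP1, was down by 0.99 and the exchange factor ARHGEF6 up by 0.37.

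The mTOR and PI3K pathway, which senses the amino acids that LAT1 carries, had 10 of 52 members higher and 5 lower (median 0.08), not far from the shares of all tested genes. RICTOR, the defining subunit of mTORC2, gave 10.53, 10.60 and 10.69 on the Ctrl-sh arrays and 11.13, 11.25 and 11.18 on the Slc7a5-sh arrays, and the insulin receptor substrate IRS2 rose by 0.44. The kinase AKT1 gave 10.51, 10.35 and 10.36 on the Ctrl-sh arrays and 9.82, 9.76 and 10.16 on the Slc7a5-sh arrays. RICTOR was higher and AKT1 lower on every Slc7a5-sh array than on any control. Of 57 MAPK pathway genes 7 rose (12.3%) and 10 fell (17.5%), with a median of -0.00, against 14.3% and 11% of all tested genes. DUSP5, a phosphatase that inactivates ERK, rose by 0.87, and MAP3K14, the NF-kB inducing kinase NIK, by 0.87. MKNK2, a kinase of the cap-binding factor eIF4E, fell by 0.45 and RASAL1, a RAS inactivator, by 0.92. MKNK2 lay 1.85 higher in C-Myc-sh than in Slc7a5-sh.

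Protein turnover and survival genes moved in both directions. Of 71 ubiquitin ligases and deubiquitinases 20 rose and 8 fell (median 0.08). Without replicate 1 or 3 of Ctrl-sh 5 or 4 fell, and with probe sets averaged 5 rose and 6 fell. MDM4, an inhibitor of p53, rose by 0.55 and XIAP, a caspase inhibitor, by 0.43, whereas MDM2, which is also on the p53 list, fell by 0.54. PELI1, a ligase of Toll-like receptor signalling, gave 12.44, 12.49 and 12.41 on the Ctrl-sh arrays and 11.65, 11.53 and 11.47 on the Slc7a5-sh arrays and the substrate receptor ASB13 fell by 0.80. Of 40 BCL2 family, caspase and inhibitor genes 13 rose and 2 fell (median 0.24), promoters and inhibitors of apoptosis alike. Of 42 lysosome and autophagy genes 12 rose and 3 fell (median 0.15), among the first MAP1LC3B, the LC3B protein of the autophagosome membrane (0.49), and ATG12 (0.50). SOCS5, a suppressor of cytokine signalling, rose by 0.60. Its list of 58 SOCS, TGF-beta, Notch and Wnt genes had 6 that rose (10.3%) and 3 that fell (5.2%). Both shares were below those of all tested genes, 14.3% and 11%.

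Among secreted factors and channels, the chemokine CCL4 gave 10.57, 10.19 and 10.11 on the Ctrl-sh arrays and 11.13, 11.24 and 11.24 on the Slc7a5-sh arrays and rose 1.88-fold, and NAMPT, the rate-limiting enzyme of NAD salvage that is also secreted, fell by 0.39 to 0.59 on its 4 probe sets. LRRC8D, a subunit of volume-regulated anion channels, rose by 0.52. Cholesterol synthesis was split, with 5 of 18 genes higher and 3 lower (median 0.09), or 2 and 4 with probe sets averaged. MSMO1, a sterol oxidase, rose by 0.48 and FDPS, farnesyl diphosphate synthase, fell by 0.28. The sterol-binding protein OSBPL3 rose by 0.67. Among plasma cell and secretory genes 5 of 28 rose and 5 fell. HERPUD1, a factor of the degradation of proteins from the endoplasmic reticulum, rose by 0.36 and MZB1, which aids antibody assembly, fell by 0.40.

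Long non-coding RNAs were mostly too dim to be tested. RefSeq gives this type to 2663 genes with a probe set here. Of these 656 were bright enough to be tested, with a median change of -0.01. Among them 42 rose (6.4%) and 30 fell (4.6%, or 19 genes without replicate 1 of Ctrl-sh). Both shares were below those of all tested genes, 14.3% and 11%. LINC00205 gave 7.99, 8.09 and 7.67 on the Ctrl-sh arrays and 8.89, 8.88 and 8.79 on the Slc7a5-sh arrays, rising 1.92-fold, and IQCH-AS1, antisense to IQCH, gave 6.67, 6.64 and 6.77 on the Ctrl-sh arrays and 7.86, 8.10 and 8.12 on the Slc7a5-sh arrays, from below the bar to above it. RFPL3S, antisense to RFPL3, also crossed the bar, with 1 control array far below the other 2: its signals were 3.73, 6.39 and 5.99 on the Ctrl-sh arrays and 7.78, 7.71 and 7.65 on the Slc7a5-sh arrays. Its log2 change of 2.34 was 1.52, limma adjusted p = 0.00155 without replicate 1 of Ctrl-sh. WARS2-AS1 rose 2.16-fold and CARINH, antisense to IRF1, 1.97-fold. Averaging probe sets ended both calls, with 1.52, limma adjusted p = 0.094 for WARS2-AS1 and a change of sign for CARINH (-0.39, limma adjusted p = 0.261). NDUFV1-DT (1.64) lost its call without replicate 2 of Ctrl-sh (1.00, limma adjusted p = 0.0652), without replicate 2 of Slc7a5-sh (1.48, limma adjusted p = 0.0748) or without replicate 3 of Slc7a5-sh (1.61, limma adjusted p = 0.0556).

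Of the long non-coding RNAs that fell most, 4 kept both group means above the bar. EP300-AS1, antisense to the acetyltransferase gene EP300, gave 9.28, 9.30 and 9.56 on the Ctrl-sh arrays and 8.25, 8.30 and 8.33 on the Slc7a5-sh arrays, LINC01003 gave 10.97, 10.76 and 10.95 on the Ctrl-sh arrays and 9.98, 9.95 and 10.10 on the Slc7a5-sh arrays and LINC00294 gave 10.56, 10.56 and 10.61 on the Ctrl-sh arrays and 9.79, 9.45 and 9.91 on the Slc7a5-sh arrays. In all 3 the groups were apart by more than the spread of either. PWAR6, from the imprinted Prader-Willi region, fell to 52.9% of control. LINC01003 and LINC00294 were higher in C-Myc-sh than in Slc7a5-sh (0.71 and 0.47), PWAR6 was lower by 0.84, and EP300-AS1 did not differ detectably (0.07, limma adjusted p = 0.711). ALMS1-IT1 fell by 1.04, but its call was lost without replicate 2 of Ctrl-sh (-0.85, limma adjusted p = 0.0977) and without replicate 3 of Slc7a5-sh (-0.85, limma adjusted p = 0.0729).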

How the data were processed

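Total RNA of 9 Daudi samples was amplified from the 3' end, labelled with biotin and hybridised to arrays, per the labels' protocols. The authors deposited 1 log2 signal for each probe set on each array. The submitters' processing notes name MAS5, which combines perfect-match and mismatch probes, without a version. On the linear scale the mean trimmed by 2% at each end was 497 on every array, so each had been scaled to 1 target. Between 110 and 193 values per array were exactly 0, the lowest value, and 0 were missing. The number of arrays limits the precision.

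The probe set with the highest mean over the 9 arrays stood for its gene, and genes were tested where that mean reached the median of all probe sets (5.77, or 54.6 linear). R 4.3.3 and limma 3.58.1 fitted 3 group means to the 9 arrays (lmFit, then eBayes with a mean-dependent prior; degrees of freedom 6 residual, 8.21 prior), with two-sided contrasts and Benjamini-Hochberg adjustment over the 11250 tested genes. This code was tested on simulated data.

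The genes and lists were chosen with earlier results of these data known. Named are SLC7A5, SLC3A2 and MYC; the called genes of the 15 largest increases and 15 largest decreases without overlap and with both group means at or above the bar; the 6 genes with the highest mean in each group among those whose other mean is below it; the 6 highest and 6 lowest called long non-coding RNAs whose higher mean reaches the bar; and, of each list, up to 4 called members per direction by smallest p with both means at or above the bar. The last were printed for range of function and, after their values were seen, mostly where the call held in every setting tried. DNAJB6 lies outside this rule and was chosen after its values were seen. Upstream sequences come from RefSeq's GRCh38.p14, which gave a promoter for 9226 of the 11250 tested genes. Coordinates of the array's own probes are not used here.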

Additional observations from a re-analysis of the deposited data

How the results depend on the processing

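The count of 2843 called genes became 1581 (795 higher, 786 lower, of 10176 tested) when all probe sets of a gene, dim ones included, were averaged, of which 1356 were also called in the main setting. It lay between 2246 and 2528 when 1 array was left out, and between 2009 and 2912 under the other settings: quantile normalization, no filter (2538), a filter at the 75th percentile of signals (2800), values under the filter raised to it (2912), no probe sets ending in _s_at or _x_at (2009), no trend in the spread (2183), and a fit of the 6 arrays alone (2716). With the replicate number as a block, 2775 genes were called and 0 printed genes lost the call. The numbers did not pair the arrays: deviations from the group means of same-numbered arrays correlated at -0.0169 to 0.00916, and Ctrl-sh replicate 1 correlated best with Slc7a5-sh replicate 2 (0.0262). SLC7A5 lay between -0.40 and -0.25 and MYC between -0.38 and -0.31 in the main setting and the 14 others that tested them, called in each. The counts of printed genes in this section leave out MDM2 and ZMAT3. The printed list members had mostly been chosen where the call held in every setting. The next share is thus partly set by that choice and does not measure how stable called genes are in general. Of 166 printed genes that were called, 144 kept direction and call in each of the 15 other settings in which they were tested. The 22 others had adjusted p-values of 4.37e-08 to 0.825 over the settings, and CARINH turned to -0.39 and LPCAT3 to -0.26 with probe sets averaged. Without a trend, MIR210HG, NDUFV1-DT and SH3BP5L lost the call (limma adjusted p = 0.0862, 0.0667 and 0.0521). The size of 19 printed genes moved by over 1.5 times with other probe sets while the call held, for example HLA-DPB1 to -2.23, HERPUD1 to 1.23 and MYLIP to -1.56 without _s_at and _x_at probe sets, and RASAL1 to -2.10, BBLN to -0.62 and ANKRD12 to 0.53 with probe sets averaged. Of 44 lists, 27 kept the sign of their median in every setting. With probe sets averaged the ATF4 list had 16 of 38 higher (25 in the main setting), the BCL2 list 7 of 39 (13 of 40), DNA replication 18 of 51 lower (24), and MHC class II 5 of 17 lower (10). Dim signals limit the precision: 7.17 was the 95th percentile of receptor genes taken as background.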
